A study of Homo sapiens and Mus musculus with 12 samples.

Results

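The 9 angiogenic factor genes *VEGFA*, *VEGFB*, *VEGFC*, *PGF*, *NRP1*, *NRP2*, *ESM1*, *ANGPTL4*, and *THBS1* were followed in human and mouse breast cancer cells exposed to ponatinib. They were taken by symbol, with the mouse genes of the same symbol, which gave 9 of 63677 identifiers in the human count files and 9 of 47729 in the mouse files, or 18 genes in all. RNA sequencing covered 12 libraries, 3 per group, from MDA-MB-231 (a human triple-negative breast cancer line) and 4T1 (a mouse mammary carcinoma line of BALB/c origin). Both lines carried the WT genotype and received either the vehicle DMSO or 1 µmol/L ponatinib, a multi-targeted tyrosine kinase inhibitor, over 24 h of culture. The cultures held tumor cells without vessels, so the values are transcript levels of factors and receptors in tumor cells and not a measure of vessel growth.

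Ligands of the vascular endothelial growth factor (VEGF) family are secreted proteins that drive the growth of blood and lymph vessels through receptor tyrosine kinases on endothelial cells. Neuropilins are co-receptors that bind VEGF ligands and class 3 semaphorins, and tumor cells carry them as well. *ESM1* encodes endocan, a secreted proteoglycan best known from activated endothelium, *ANGPTL4* encodes a secreted inhibitor of lipoprotein lipase, and *THBS1* encodes thrombospondin-1, a matrix protein that inhibits angiogenesis through CD36 and CD47 and can activate latent TGF-beta.

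The libraries held between 15012884 and 17301760 counts in MDA-MB-231 and between 17800675 and 18951493 in 4T1. Levels are given in counts per 1000000 counts of a library scaled by TMM (CPM). Under DMSO the epithelial markers *KRT8*, *KRT18*, and *KRT19* had means of at least 117 CPM in both lines. *KRT7* had 453 CPM in MDA-MB-231 but 11.5 CPM in 4T1, and *EPCAM* had 6.44 and 2.86 CPM. *CDH1* (E-cadherin), a further epithelial marker, had at most 1 count per library in MDA-MB-231 and a mean of 831 CPM in 4T1 under DMSO. Among the 5 epithelial markers tested in MDA-MB-231 3 rose, and among the 6 in 4T1 1 rose and 2 fell. Of the markers of a mesenchymal state, 2 fell and 1 rose of 3 tested in MDA-MB-231, and 2 of 3 fell in 4T1. The endothelial markers summed to 627 to 755 CPM under DMSO and 371 to 421 CPM under ponatinib in MDA-MB-231, where *ESAM* (330 to 154 CPM) and *ROBO4* (248 to 151 CPM) fell, *EGFL7* did not pass, *PECAM1* had 0 counts and *CDH5* had at most 6. In 4T1 they summed to 3.45 to 4.76 CPM under DMSO and 3.15 to 4.66 CPM under ponatinib, with *Cldn5*, *Emcn*, and *Robo4* at 0. Leukocyte markers summed to at most 2.23 CPM in any library of either line, with 1 of them tested and higher in MDA-MB-231, and 2 of 2 fibroblast markers tested rose in MDA-MB-231 (sums of 26.5 to 31.5 CPM under DMSO and 81.5 to 87.9 CPM under ponatinib). In 4T1, 2 fibroblast markers fell and 1 rose of 3 tested (sums of 6.67 to 7.55 CPM and 9.56 to 10.2 CPM). The part of these markers in the responses below was not tested. Lower counts of a gene in these bulk samples can mean fewer cells that express it or less RNA per cell, which cannot be told apart. No label states that the 3 libraries of a group came from separate cultures, so p-values measure the spread between these libraries, which may be technical.

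Ponatinib moved most of the 9 genes in each line, but not the same way. In MDA-MB-231 (edgeR quasi-likelihood test, Benjamini-Hochberg adjusted p under 0.05), 3 of the 9 genes fell (*ESM1*, *ANGPTL4*, and *THBS1*), 4 rose (*VEGFA*, *VEGFB*, *PGF*, and *NRP2*) and 2 did not pass (*VEGFC* and *NRP1*). In 4T1, 3 of the 8 genes tested fell (*Vegfa*, *Pgf*, and *Nrp2*), 4 rose (*Vegfb*, *Vegfc*, *Nrp1*, and *Thbs1*), *Angptl4* did not pass, and *Esm1* had no counts.

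A call was common among all genes. Of the genes tested, 54.0% passed in MDA-MB-231 (26.8% lower and 27.2% higher) and 59.0% passed in 4T1 (29.4% lower and 29.5% higher). The counts for the angiogenic factor genes are to be read beside these shares. So are the counts for the marker lists above and for every gene list below, none of which was tested as a set. The libraries of the DMSO and ponatinib groups did not overlap for 6 of 9 genes in MDA-MB-231 and 7 of 8 in 4T1, against 60.4% and 63.4% of all genes tested. Past 2-fold were 3 of the 9 genes in MDA-MB-231 and 3 of the 8 in 4T1, against 15.9% and 14.4% of all genes. The median log2 fold change of the angiogenic factor genes was −0.05 for MDA-MB-231, beside 0.02 over all genes, and 0.15 for 4T1, beside −0.00. Their median absolute log2 fold change was 0.38 for MDA-MB-231, beside 0.42 over all genes, and 0.74 for 4T1, beside 0.39. The 9 genes were chosen with earlier results of these data known, so none of these comparisons with all genes tests them as a set. An exact permutation test on 3 against 3 libraries cannot fall below p = 0.1, which is the value that every gene with separate groups reached.

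**Figure D1:**
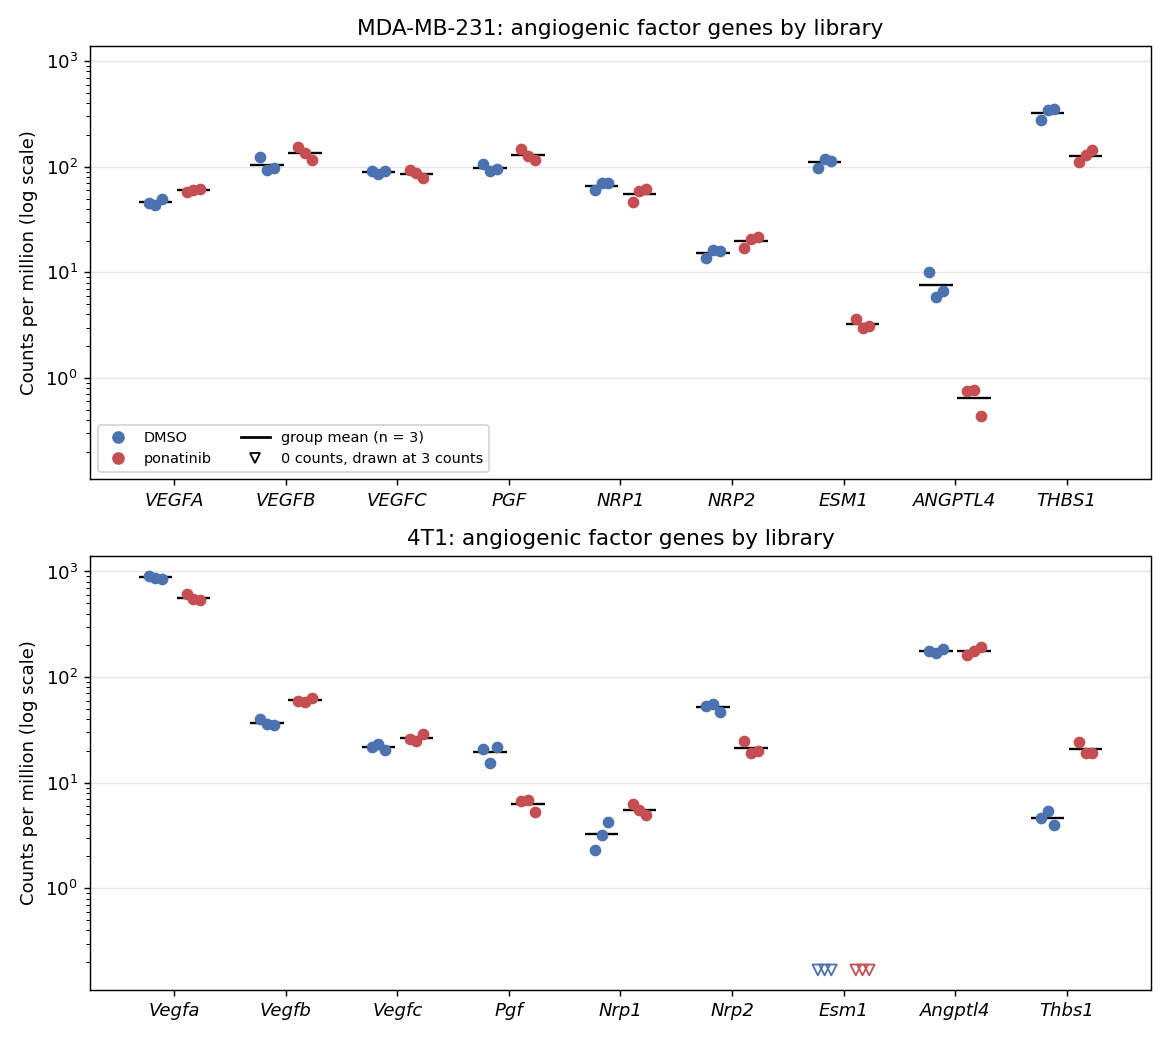
CPM (log scale) of the 9 angiogenic factor genes in each of the 12 libraries, with DMSO and ponatinib libraries side by side and a line at the mean of 3; open triangles mark 0 counts, drawn at the level of 3 counts. *ESM1* lies between 98.1 and 118 CPM with DMSO and at 3.66 CPM or less with ponatinib in MDA-MB-231, and *Thbs1* in 4T1 and *THBS1* in MDA-MB-231 move in opposite directions.

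*ESM1* showed the largest change of the 9 genes. The human gene (ENSG00000164283) lies on the minus strand at chr5:54977867-55022671 of hg38. It had 98.1, 118, and 114 CPM in the DMSO libraries of MDA-MB-231 and 3.66, 2.99, and 3.12 CPM in the ponatinib libraries, from 1479 to 1825 counts and from 47 to 58 counts. Every ponatinib library was far below every DMSO library, and the 3 libraries of each group lay close together. The log2 fold change was −5.08 ± 0.12 (SE, adjusted p = 3.59e-10), a 33.8-fold fall that ranked 26 by size among 14610 genes tested.

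The mouse gene *Esm1* (ENSMUSG00000042379, chr13:113346021-113354632 of GRCm39, plus strand) had 0 counts in all 6 libraries of 4T1. A count of 0 allows up to 3 counts per library, or 0.158 to 0.169 CPM of the unscaled totals, so no response could be measured in this line. In MDA-MB-231, the genes whose centred log2 CPM profile over the 6 libraries was nearest to that of *ESM1*, among 9608 genes with at least 10 CPM in 1 group, were *IL1B* (interleukin-1 beta; root mean square difference 0.15), *CSF3* (granulocyte colony-stimulating factor; 0.22), and *HAS2* (a hyaluronan synthase; 0.33). *IL1B* went from a mean of 321 to 8.21 CPM. *CSF3* went from 30.8 to 0.749 CPM and *HAS2* from 20.0 to 0.347 CPM.

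*ANGPTL4* had the next largest change in MDA-MB-231. The human gene (ENSG00000167772) lies at chr19:8363289-8374370 on the plus strand. Its DMSO libraries held 10.1, 5.89, and 6.73 CPM and its ponatinib libraries 0.757, 0.765, and 0.438 CPM, which rest on 91 to 152 counts and on 8 to 12 counts. The groups did not overlap, although DMSO library 1 stood above the other two. On the log2 scale the change was −3.54 ± 0.30 (SE, adjusted p = 2.15e-06), an 11.6-fold fall.

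In 4T1, *Angptl4* (ENSMUSG00000002289, chr17:33992724-34000804, minus strand) was abundant and its level differed little between the groups. The DMSO libraries held 175, 169, and 184 CPM and the ponatinib libraries 164, 177, and 193 CPM. The groups overlapped. The log2 fold change was 0.01 with a 95% interval from −0.15 to 0.18 (adjusted p = 0.886), so the interval leaves room for a change of that size in either direction.

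*THBS1* fell in the human line and rose in the mouse line. In MDA-MB-231 the gene (ENSG00000137801, chr15:39581079-39599466, plus strand) had 277, 346, and 352 CPM with DMSO and 110, 129, and 145 CPM with ponatinib. All ponatinib libraries lay below all DMSO libraries. On the log2 scale the change was −1.35 ± 0.12 (SE, adjusted p = 2.31e-06), a 2.54-fold fall.

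In 4T1, *Thbs1* (ENSMUSG00000040152, chr2:117941974-117957616, plus strand) had 4.59, 5.45, and 3.94 CPM with DMSO and 24.0, 19.3, and 19.1 CPM with ponatinib. The low group and the high group were well apart, and even the high group of 4T1 was far below the treated MDA-MB-231 libraries in CPM. The log2 fold change was 2.16 ± 0.15 (SE, adjusted p = 2.69e-08), a 4.46-fold rise that ranked 396 by size among 13286 genes. The profiles nearest to *Thbs1* among 9467 genes were those of *Clrn3* (0.12), *St3gal5* (a sialyltransferase that makes the ganglioside GM3; 0.13), and *Itgb6* (an integrin subunit; 0.14). Genes on the opposite strand overlap exons of both thrombospondin genes, and libraries without strand information cannot part their reads. The overlapping genes that were counted had few reads, with 31 counts over 6 libraries for *FSIP1* in MDA-MB-231 and 10 for *Gm13986* in 4T1, while *THBS1-AS1* was not in the count files used here.

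The promoters of the 3 human genes that fell are shown because these genes carry the largest changes in MDA-MB-231. RefSeq start sites on GRCh38.p14 were matched for 7 of the 9 human genes, all but *VEGFA* and *NRP1*. Capitals mark matches, on either strand, to the TATA box (TATAAA), the GC box (GGGCGG), the core of the hypoxia response element (ACGTG), the AP-1 site (TGANTCA), the ETS site (CCGGAAG), or the cAMP response element (TGACGTCA), and each sequence is written 5′ to 3′ on the strand of its gene. The window of *ESM1* lies in annotated exons of the gene, and the annotated gene starts 37078 bases upstream of the RefSeq start. Only 30 bases from 32 to 3 bases before this RefSeq start are therefore given (chr5:54985596-54985625, minus strand). They stand beside 250 bases upstream of the starts of *ANGPTL4* (chr19:8363905-8364154, plus strand) and *THBS1* (chr15:39580829-39581078, plus strand).
ESM1: TATAAAactcataaACGTGtaggcagaggc
ANGPTL4: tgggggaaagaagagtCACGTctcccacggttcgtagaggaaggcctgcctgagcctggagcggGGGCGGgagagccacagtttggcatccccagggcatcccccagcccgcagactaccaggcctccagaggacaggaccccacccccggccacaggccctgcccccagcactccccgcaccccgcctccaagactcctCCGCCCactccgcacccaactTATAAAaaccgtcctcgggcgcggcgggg
THBS1: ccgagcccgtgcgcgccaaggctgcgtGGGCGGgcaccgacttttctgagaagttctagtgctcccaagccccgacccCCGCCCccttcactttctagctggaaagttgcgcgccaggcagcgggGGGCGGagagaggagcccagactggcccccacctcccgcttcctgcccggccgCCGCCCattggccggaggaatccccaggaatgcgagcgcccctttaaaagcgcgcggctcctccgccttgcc

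*ESM1* and *ANGPTL4* each held 1 exact match to TATAAA, which lay 32 and 29 bases before the start, while *THBS1* held none. This exact match is found in 10.8% of 34788 RefSeq promoter windows of 250 bases. Near matches, such as tttaaa close to the start of *THBS1*, were not searched for. *ESM1* and *ANGPTL4* also each held 1 match to the hypoxia response core, at 18 and 234 bases before the start, and 18.5% of all windows hold one. GC boxes numbered 0 in *ESM1*, 2 in *ANGPTL4*, and 4 in *THBS1*, and 42.6% of all windows hold at least 1. The other 4 genes with a window, *VEGFB*, *VEGFC*, *PGF*, and *NRP2*, had between 2 and 6 GC boxes and no exact match to TATAAA or to the hypoxia response core. None of the 7 genes held an AP-1 site, an ETS site, or a cAMP response element, which occur in 6.59%, 8.5%, and 1.64% of all windows. The share of G and C was 47.6% in the *ESM1* window, 68.8% in *ANGPTL4*, and 69.6% in *THBS1*, beside a median of 58.0% over all windows. The letters describe these windows and were not tied to the response of the genes.

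In MDA-MB-231, the VEGF ligands moved less than *ESM1* and *ANGPTL4*. *VEGFA*, the main driver of blood vessel growth (ENSG00000112715, chr6:43770184-43786487, plus strand), had 45.2, 43.6, and 49.8 CPM with DMSO and 57.5, 60.7, and 61.8 CPM with ponatinib in MDA-MB-231. The groups did not overlap. On the log2 scale the change was 0.38 ± 0.09 (SE, adjusted p = 0.00278). In 4T1, *Vegfa* (ENSMUSG00000023951, chr17:46327919-46343309, minus strand) had 909, 877, and 855 CPM with DMSO and 609, 543, and 541 CPM with ponatinib. The treated libraries were all lower, and the fall was −0.64 ± 0.08 on the log2 scale (SE, adjusted p = 6.65e-06). Gene counts do not separate the splice forms of *VEGFA*.

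*PGF*, placental growth factor, a ligand of the receptor FLT1, also went opposite ways. In MDA-MB-231 the gene (ENSG00000119630, chr14:74941834-74955626, minus strand) had 107, 91.6, and 95.1 CPM with DMSO and 147, 125, and 116 CPM with ponatinib. The groups were apart, with a log2 fold change of 0.40 ± 0.10 (SE, adjusted p = 0.00496). In 4T1, *Pgf* (ENSMUSG00000004791, chr12:85213409-85224564, minus strand) had 21.0, 15.4, and 21.6 CPM with DMSO and 6.75, 6.82, and 5.31 CPM with ponatinib. All treated libraries were lower, and the log2 fold change was −1.62 ± 0.16 (SE, adjusted p = 6.90e-07), a 3.07-fold fall.

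*VEGFB*, another FLT1 ligand, rose in both lines. In MDA-MB-231 it (ENSG00000173511, chr11:64234584-64239264, plus strand) had 124, 92.9, and 97.6 CPM with DMSO and 154, 136, and 116 CPM with ponatinib. DMSO library 1 stood above ponatinib library 3, so the groups overlapped. The log2 fold change was 0.37 ± 0.12 (SE, adjusted p = 0.0255). The call was lost without DMSO replicate 2 or 3 or without ponatinib replicate 1 or 2 (adjusted p up to 0.123). With the replicate number as a block it stayed (0.37, adjusted p = 3.085e-06). In 4T1, *Vegfb* (ENSMUSG00000024962, chr19:6958447-6965127, minus strand) had 39.8, 36.0, and 35.2 CPM with DMSO and 60.0, 58.4, and 62.7 CPM with ponatinib. There the groups were well apart (log2 fold change 0.71 ± 0.08, SE, adjusted p = 5.12e-06).

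*VEGFC*, the ligand of FLT4 that drives lymphatic growth, changed little. In MDA-MB-231 the gene (ENSG00000150630, chr4:176683538-176792922, minus strand) had 90.4, 85.1, and 91.8 CPM with DMSO and 92.6, 87.2, and 79.0 CPM with ponatinib. The groups overlapped, and the log2 fold change of −0.05 had a 95% interval from −0.23 to 0.13 (adjusted p = 0.653). In 4T1, *Vegfc* (ENSMUSG00000031520, chr8:54530257-54640131, plus strand) had 22.0, 23.2, and 20.5 CPM with DMSO and 25.9, 25.0, and 28.9 CPM with ponatinib. The treated libraries were higher by 0.28 ± 0.10 on the log2 scale (SE, adjusted p = 0.0298), a call that was lost without DMSO replicate 3 (adjusted p = 0.121) or ponatinib replicate 3 (adjusted p = 0.125).

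Of the neuropilins, *NRP2* rose in MDA-MB-231 and fell in 4T1, and *NRP1* rose in 4T1. In MDA-MB-231, *NRP1* (ENSG00000099250, chr10:33177492-33336262, minus strand) had 59.8, 70.1, and 69.8 CPM with DMSO and 46.3, 58.4, and 61.4 CPM with ponatinib. Ponatinib library 3 lay above DMSO library 1, so the groups overlapped. The log2 fold change of −0.27 ± 0.11 (SE) did not pass (adjusted p = 0.0650), but with the replicate number as a block it did (−0.27, adjusted p = 0.000356), and it also passed with no filter on low counts (adjusted p = 0.0132) and without DMSO replicate 1 (adjusted p = 0.0234) or ponatinib replicate 3 (adjusted p = 0.0326). *NRP2* (ENSG00000118257, chr2:205681990-205798133, plus strand) had 13.7, 16.3, and 15.9 CPM with DMSO and 17.1, 20.8, and 21.5 CPM with ponatinib. The groups did not overlap, and the gene rose by 0.38 ± 0.12 on the log2 scale (SE, adjusted p = 0.0234). Leaving out DMSO replicate 1 or 3 or ponatinib replicate 2 or 3 ended this call (adjusted p up to 0.0920). It stayed with the replicate number as a block (adjusted p = 0.00112).

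In 4T1, *Nrp1* (ENSMUSG00000025810, chr8:129085085-129231082, plus strand) had 2.33, 3.22, and 4.21 CPM with DMSO and 6.24, 5.48, and 4.93 CPM with ponatinib, from 41 to 122 counts per library. The groups were apart by a narrow gap, with a log2 fold change of 0.77 ± 0.21 (SE, adjusted p = 0.00602). *Nrp2* (ENSMUSG00000025969, chr1:62742444-62857854, plus strand) had 53.5, 55.6, and 46.4 CPM with DMSO and 24.7, 19.1, and 20.1 CPM with ponatinib. The fall was clear of the spread (log2 fold change −1.28 ± 0.11, SE, adjusted p = 2.41e-07).

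**Figure D2:**
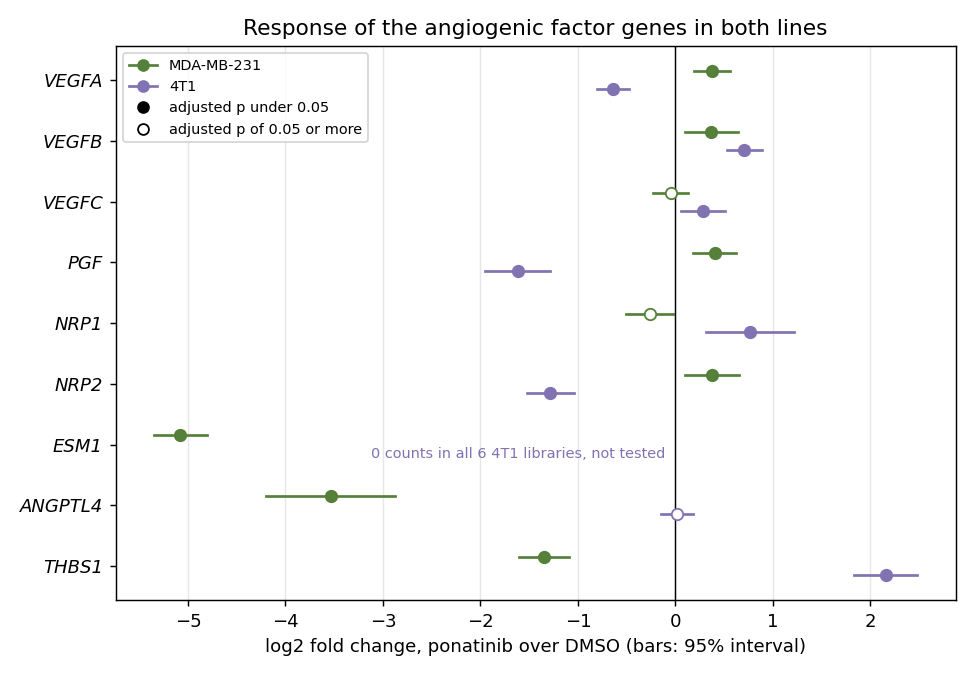
Log2 fold change of ponatinib over DMSO for each angiogenic factor gene in MDA-MB-231 and 4T1, with bars for the 95% interval and filled points for an adjusted p under 0.05. *VEGFA*, *PGF*, *NRP2*, and *THBS1* lie on opposite sides of 0 in the lines, and *ESM1* and *ANGPTL4* lie far to the left in MDA-MB-231.

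The difference between the lines was itself tested by an interaction term over 12488 genes whose symbol is shared. It passed for 6 of the 8 genes that could be tested, and for 42.0% of the 12488 genes. The 8 genes were tested in both lines, whereas the 12488 also include genes not tested in 1 of the lines. The 2 shares are therefore not over like sets. The difference in log2 fold change, MDA-MB-231 minus 4T1, was −3.53 ± 0.28 for *ANGPTL4* (SE, adjusted p = 1.13e-08) and −3.48 ± 0.19 for *THBS1* (adjusted p = 1.02e-10). It was 2.04 ± 0.19 for *PGF* (adjusted p = 6.95e-08), 1.68 ± 0.17 for *NRP2* (adjusted p = 3.25e-07), and 1.04 ± 0.11 for *VEGFA* (adjusted p = 5.05e-07). *NRP1* differed by −1.01 ± 0.23 (adjusted p = 0.00146). Thus 4 of the 8 genes were called in both lines with opposite signs, beside 10.6% of the 9838 genes tested in both lines, and 1 (*VEGFB*) was called in both with the same sign, beside 27.3%. With the replicate number as a block *NRP1* joined the former, which gave 5 of the 8, beside 15.6%. Since the genes were chosen with earlier results of these data known, these shares do not test them as a set.

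The response of *VEGFB* and *VEGFC* did not differ past the threshold. The difference was −0.32 for *VEGFB* (95% interval −0.65 to 0.01; adjusted p = 0.113) and −0.31 for *VEGFC* (95% interval −0.58 to −0.04; adjusted p = 0.0581). With the replicate number as a block both passed (adjusted p = 0.00637 and 0.0211), and both also passed under scaling by total counts and without ponatinib replicate 1 of MDA-MB-231 (adjusted p = 0.0249 and 0.0266).

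Levels of different genes were compared per kilobase of exon, and here the lines differed before any treatment. In DMSO-treated 4T1, *Vegfa* led with 205 ± 6.24 CPM per kilobase (SD, n = 3), followed by *Angptl4* at 39.1 ± 1.67 and *Vegfb* at 11.4 ± 0.757. *Vegfc* (7.64) and *Pgf* (6.61) overlapped, and *Nrp2* (4.31), *Thbs1* (0.722), and *Nrp1* (0.214) came after them. In DMSO-treated MDA-MB-231, *VEGFB* led with 53.3 ± 8.64 CPM per kilobase, ahead of *ESM1* at 40.9 ± 3.95, *THBS1* at 35.5 ± 4.53, and *VEGFC* at 34.1 ± 1.35, of which *ESM1* and *THBS1*, and *THBS1* and *VEGFC*, overlapped. *PGF* (16.9) and *NRP1* (5.78) followed, *VEGFA* (3.20) and *ANGPTL4* (3.06) overlapped, and *NRP2* was lowest at 1.10.

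With ponatinib, *ESM1* went from place 2 to place 8 in MDA-MB-231 with joined exons (1.21 ± 0.131 CPM per kilobase, overlapping *NRP2* at 1.43). *ANGPTL4* came last at 0.264 ± 0.0753. In 4T1, *Thbs1* rose to 3.22 ± 0.434 CPM per kilobase and passed *Pgf* (2.15) and *Nrp2* (1.77), which overlapped each other. With canonical transcripts *Thbs1* (3.34), *Nrp2* (3.15), and *Pgf* (3.03) followed in this order, and each overlapped the next. *Vegfa* stayed on top at 131 ± 9.03.

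The order depended on the length used in both lines. In DMSO-treated 4T1, *Pgf* (9.30) stood above *Vegfc* (7.72) with canonical transcripts, again with overlap. In the human line, the exons of *VEGFA* cover 14431 bases when all transcripts are joined but 3609 in the canonical transcript, and with canonical transcripts *VEGFA* stood at 12.8 ± 0.900 CPM per kilobase under DMSO, above *NRP1* at 11.8 with overlap. *PGF* moved from 16.9 to 56.2 CPM per kilobase, next to *VEGFB* at 58.2 and above *ESM1* at 52.6. *PGF* overlapped both, and *ESM1* thus held place 3 under DMSO with canonical transcripts. Among the 4 VEGF family ligands, *VEGFA* made up 2.98% of the summed level in DMSO-treated MDA-MB-231 with joined exons and 7.68% with canonical transcripts, and 3.25% and 8.15% with ponatinib. In 4T1 the share of *Vegfa* was 88.9% and 87.4% with DMSO and 81.4% and 78.6% with ponatinib, so it held the larger part under both lengths. The summed level of the 4 ligands with canonical transcripts was 167 CPM per kilobase with DMSO and 204 with ponatinib in MDA-MB-231. In 4T1 it was 291 with DMSO and 207 with ponatinib.

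**Figure D3:**
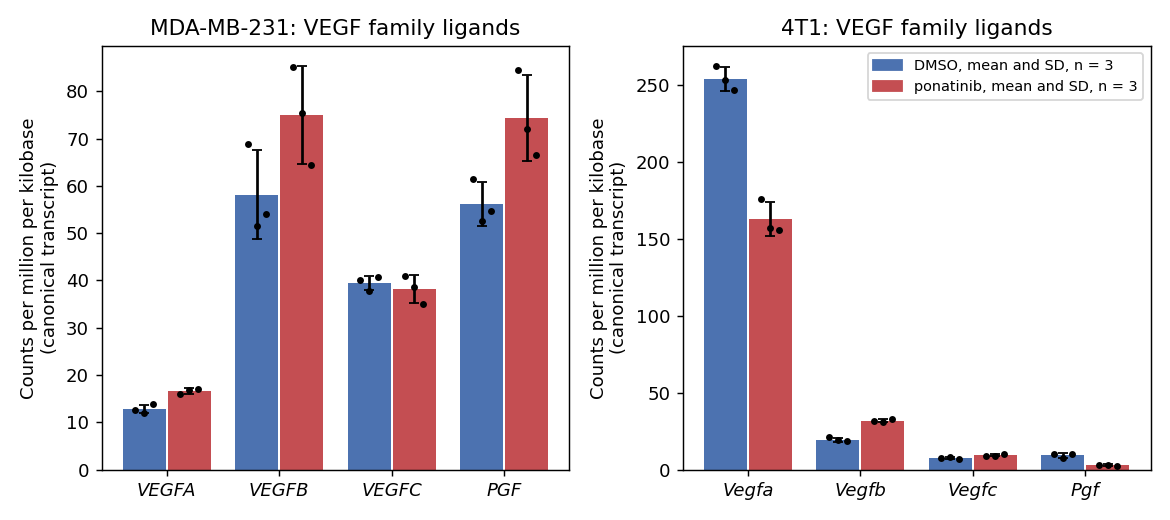
Level of the 4 VEGF family ligands in CPM per kilobase of the canonical transcript, as bars for the mean and SD of 3 libraries and points for single libraries, on separate linear axes for the lines. *Vegfa* falls from 254 to 163 and exceeds the other ligands of 4T1, while *VEGFB* and *PGF* are the highest in MDA-MB-231.

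Ratios of 2 genes within a library do not depend on how the libraries were scaled. The ratio of *VEGFA* to *THBS1* in CPM was 0.163, 0.126, and 0.142 with DMSO and 0.523, 0.471, and 0.427 with ponatinib in MDA-MB-231. In 4T1 it was 198, 161, and 217 with DMSO and 25.4, 28.2, and 28.3 with ponatinib. The ratio thus went up 3.31-fold in the human line and down to 0.143 of its DMSO value in the mouse line, with no overlap in either.

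The ratio of *NRP1* to *NRP2* varied little over the libraries of a group in MDA-MB-231 and more in 4T1. It was 4.38, 4.31, and 4.40 with DMSO and 2.71, 2.81, and 2.85 with ponatinib in MDA-MB-231. In 4T1 it was 0.0435, 0.058, and 0.0908 with DMSO and 0.252, 0.287, and 0.246 with ponatinib. The 2 treatments were apart in both lines, and *NRP1* exceeded *NRP2* in all libraries of the human line and in none of the mouse line. By contrast, the ratio of *PGF* to *VEGFA* in MDA-MB-231 had a mean of 2.13 with DMSO and 2.16 with ponatinib, within the spread of either group, and in 4T1 it fell from 0.022 to 0.0111.

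**Figure D4:**
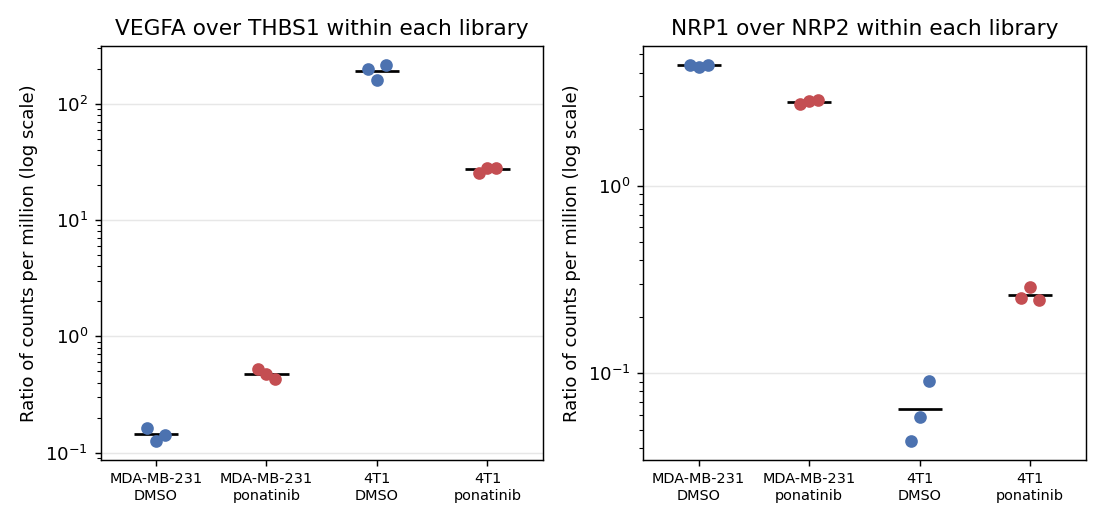
Ratio of *VEGFA* to *THBS1* (left) and of *NRP1* to *NRP2* (right) in CPM within each library, on log axes, with a line at the mean of 3 libraries. The first ratio rises in MDA-MB-231 and falls in 4T1, and the second does the reverse.

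The receptors of these ligands had a mean of at most 4.45 CPM in either group, apart from *Flt1* in 4T1. *KDR*, the main signaling receptor of VEGFA, had a mean of 4.45 CPM with DMSO and 4.20 CPM with ponatinib in MDA-MB-231 (log2 fold change −0.08; adjusted p = 0.812), and *FLT1* and *FLT4* had at most 7 counts in any library and were not tested. In 4T1, *Kdr* fell from 3.43 to 0.817 CPM (log2 fold change −2.06 ± 0.34, SE, adjusted p = 0.000107) and *Flt1* rose from 27.1 to 33.7 CPM (0.31 ± 0.10; adjusted p = 0.0154), while *Flt4* had 1.21 and 0.892 CPM and did not pass. The call for *Flt1* was lost without DMSO replicate 1 (adjusted p = 0.0554) or ponatinib replicate 1 (adjusted p = 0.0502). *VEGFD*, a further ligand of FLT4, was at the limit of detection, with 6 counts over the DMSO libraries and 58 over the ponatinib libraries of MDA-MB-231 (higher; adjusted p = 0.00144) and 30 and 77 counts in 4T1 (higher; adjusted p = 0.00884, and 0.0711 without ponatinib replicate 2).

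Most class 3 semaphorins share neuropilins with the VEGF ligands. The class 3 semaphorins, their plexin receptors, and *GIPC1*, a binding partner of neuropilin-1, formed a list of 13 genes. In MDA-MB-231, 2 fell and 5 rose of 13 tested (median log2 fold change 0.19), and in 4T1, 3 fell and 3 rose of 11 (median 0.11). *SEMA3B* rose in MDA-MB-231 from 5.31 to 29.1 CPM (log2 fold change 2.45 ± 0.16, SE), *PLXND1* rose from 51.8 to 93.8 CPM (0.86 ± 0.08) and *PLXNA2* fell from 67.7 to 20.4 CPM (−1.73 ± 0.09). In 4T1, *Sema3e*, the ligand of plexin D1, fell from 111 to 19.8 CPM (−2.48 ± 0.09), *Sema3c* fell from 266 to 162 CPM (−0.71 ± 0.08) and *Sema3f* rose from 14.2 to 32.0 CPM (1.17 ± 0.12).

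Other thrombospondins did not follow *THBS1* in MDA-MB-231. *THBS3* rose from 1.84 to 8.39 CPM (log2 fold change 2.19 ± 0.19, SE, adjusted p = 2.86e-06) and *THBS2* from 0.884 to 2.27 CPM (1.37 ± 0.44; adjusted p = 0.0196, lost without DMSO replicate 1 or 3 or ponatinib replicate 3, up to 0.0797). The receptor *CD47* fell from 69.2 to 54.1 CPM (−0.36 ± 0.09; adjusted p = 0.00475), a call lost under scaling by total counts (adjusted p = 0.0517). In 4T1, *Thbs2* rose from 0.425 to 1.34 CPM and *Thbs3* from 19.6 to 34.4 CPM, while *Cd47* had 204 and 210 CPM and did not pass (adjusted p = 0.681). The receptor *CD36* had at most 7 counts in any library of either line. Of the list, 1 fell and 2 rose of 3 tested in MDA-MB-231 (median 1.37), and 2 of 3 rose in 4T1 (median 0.81).

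Latent TGF-beta, which thrombospondin-1 can activate, was represented by 11 genes tested in both lines. In MDA-MB-231, 2 fell and 4 rose (median log2 fold change −0.13), and in 4T1, 4 fell and 4 rose (median 0.10). *TGFB2* rose in both, from 63.1 to 141 CPM in MDA-MB-231 (1.16 ± 0.11, SE) and from 12.03 to 42.2 CPM in 4T1 (1.81 ± 0.11). *LTBP1*, which anchors latent TGF-beta in the matrix, fell in both, from 14.0 to 7.87 CPM (−0.83 ± 0.19) and from 587 to 252 CPM (−1.22 ± 0.10). *LTBP3* rose in MDA-MB-231 from 85.5 to 171 CPM (1.00 ± 0.15) and *Ltbp2* from 106 to 265 CPM in 4T1 (1.33 ± 0.08).

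*ANGPTL4* is an inhibitor of lipoprotein lipase and a target of PPAR receptors and of hypoxia-inducible factors (HIF), so lists of these systems were read beside it. In the lipase system 3 of 4 genes tested rose in MDA-MB-231 (median log2 fold change 0.83) and 1 of 3 in 4T1 (median 0.13). *LPL* rose in MDA-MB-231 from 3.22 to 7.23 CPM (1.16 ± 0.20, SE), *VLDLR* from 18.2 to 25.7 CPM (0.50 ± 0.12), and *LMF1*, a factor for lipase maturation, from 0.992 to 7.90 CPM (2.98 ± 0.21), while *Lmf1* rose from 31.3 to 57.7 CPM in 4T1 (0.88 ± 0.10). Of the PPAR receptors and their target genes, 1 fell and 3 rose of 10 in MDA-MB-231 (median 0.07), and 2 fell and 6 rose of 10 in 4T1 (median 0.24). *CPT1A*, the gate of fatty acid entry to mitochondria, rose in both lines, from 53.9 to 82.3 CPM (0.61 ± 0.08) and from 119 to 255 CPM (1.10 ± 0.08). *PPARA* rose in MDA-MB-231 from 6.63 to 9.87 CPM (0.57 ± 0.14) and *PDK4* from 0.560 to 1.52 CPM (1.43 ± 0.42; adjusted p = 0.0126, lost without DMSO replicate 1 or 3 or ponatinib replicate 2, up to 0.0529). *Plin2*, a lipid droplet coat gene, fell in 4T1 from 1303 to 552 CPM (−1.24 ± 0.08).

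The HIF target list held calls in both directions. In MDA-MB-231, 6 fell and 7 rose of 19 tested (median log2 fold change −0.16), and in 4T1, 10 fell and 4 rose of 18 (median −0.31). *DDIT4*, an inhibitor of mTORC1, rose in MDA-MB-231 from 10.96 to 192 CPM (4.13 ± 0.15, SE), *MXI1* rose from 9.99 to 31.3 CPM (1.65 ± 0.13) and *ANKRD37* from 3.16 to 8.99 CPM (1.50 ± 0.22). In 4T1, *Ddit4* fell from 448 to 267 CPM (−0.75 ± 0.09), the glucose transporter *Slc2a1* fell from 350 to 191 CPM (−0.87 ± 0.09) and *Stc2* rose from 55.5 to 91.8 CPM (0.72 ± 0.07). *SLC2A1* was among the 6 that fell in MDA-MB-231, from 390 to 238.5 CPM (−0.71 ± 0.07). Of the HIF subunits and *VHL*, 3 of 4 rose in MDA-MB-231 (median 0.57), with *EPAS1* (HIF-2 alpha) from 36.6 to 81.1 CPM (1.14 ± 0.11), *ARNT* from 19.2 to 32.5 CPM (0.76 ± 0.11) and *VHL* from 32.5 to 42.2 CPM (0.38 ± 0.13; adjusted p = 0.0255, lost in 4 of the 6 fits without 1 library, up to 0.106). In 4T1, 3 fell and 1 rose (median −0.34), with *Epas1* from 3.62 to 12.2 CPM (1.75 ± 0.14), *Hif1a* from 286 to 209 CPM (−0.45 ± 0.09) and *Vhl* from 64.7 to 47.4 CPM (−0.45 ± 0.08).

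Beyond the VEGF family, 22 other angiogenic ligands were listed. In MDA-MB-231, 9 fell and 5 rose of 17 tested (median log2 fold change −0.53), and in 4T1, 6 fell and 6 rose of 17 (median 0.27). *HBEGF*, a ligand of the EGF receptor, fell in both lines, from 169 to 28.7 CPM (−2.56 ± 0.08, SE) and from 367 to 133 CPM (−1.46 ± 0.07). *FGF1* fell from 4.69 to 0.402 CPM in MDA-MB-231 (−3.52 ± 0.31) and rose from 10.6 to 67.7 CPM in 4T1 (2.67 ± 0.09). *EDN1*, endothelin-1, fell from 78.0 to 24.9 CPM in MDA-MB-231 (−1.65 ± 0.08), and *Dll4*, a Notch ligand, fell from 1.94 to 0.800 CPM in 4T1 (−1.27 ± 0.29).

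Inhibitors of angiogenesis other than *THBS1* gave 1 lower and 5 higher of 9 tested in MDA-MB-231 (median log2 fold change 0.40) and 5 lower and 1 higher of 8 in 4T1 (median −1.17). *ADAMTS1*, a metalloprotease with thrombospondin repeats, fell in both lines, from 63.2 to 8.82 CPM (−2.83 ± 0.14, SE) and from 38.3 to 6.52 CPM (−2.55 ± 0.14). *COL18A1*, the source of endostatin, rose in MDA-MB-231 from 40.4 to 85.3 CPM (1.08 ± 0.09), and the chemokine *CXCL10* went from 11 to 84 counts over 3 libraries (higher; adjusted p = 0.00141). In 4T1, *Cxcl10* fell from 13.0 to 3.78 CPM (−1.78 ± 0.18) and *Timp3* from 4.99 to 1.53 CPM (−1.70 ± 0.21). The 1 that rose there, *Sparc*, was more abundant and went from 249.5 to 355.5 CPM (0.51 ± 0.07). The listed genes of 4T1 together summed to 1378 to 1465 CPM with DMSO and 1442 to 1529 CPM with ponatinib.

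Of the angiopoietins and angiopoietin-like genes, 1 fell and 2 rose of 4 tested in MDA-MB-231 (median log2 fold change 0.60), and 1 fell and 2 rose of 5 in 4T1 (median 0.15). *ANGPTL2* rose in MDA-MB-231 from 11.6 to 31.5 CPM (1.44 ± 0.14, SE), the receptor gene *TIE1* fell from 6.61 to 2.63 CPM (−1.33 ± 0.23), and *ANGPT1* went from 35 to 107 counts over 3 libraries (1.50 ± 0.31). In 4T1, *Angpt1* went from 22 to 147 counts (2.63 ± 0.32), *Angpt2* rose from 13.7 to 24.0 CPM (0.81 ± 0.11) and *Angptl8* fell from 18.8 to 12.8 CPM (−0.55 ± 0.12).

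**Figure D5:**
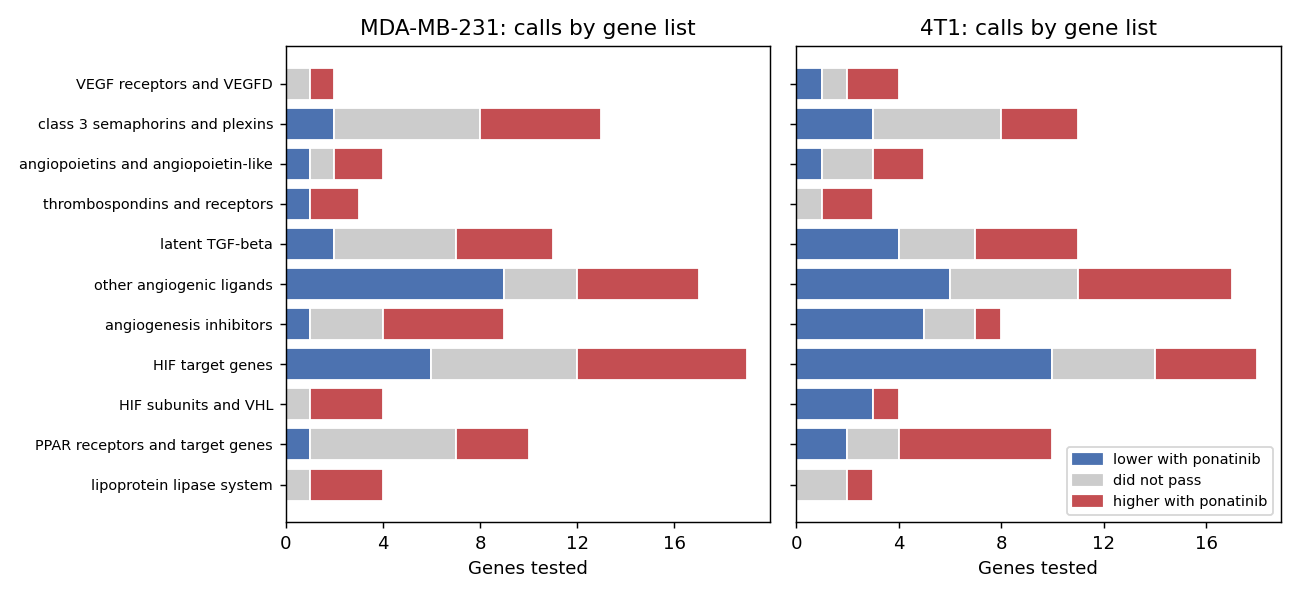
Number of genes tested in each of 11 lists that fell, rose, or did not pass (adjusted p under 0.05) in MDA-MB-231 on the left and 4T1 on the right. Among the inhibitors 5 of 9 rise in MDA-MB-231, beside 27.2% of all genes tested, and 5 of 8 fall in 4T1, beside 29.4%. The HIF targets hold calls in both directions in each line.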

How the data were processed

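The authors aligned the reads with HISAT2 and counted them per gene with HTSeq, and they deposited 1 file of raw counts per library. Per the labels, the builds were hg38 and GRCm39 and the RNA was TRIzol-extracted for NEBNext Ultra RNA libraries. Tool versions, gene annotation, and strand setting are not given in the sources used here. Identifiers were matched to GENCODE v44 (81.9% of human identifiers, 99.3% of counts) and GENCODE vM39 (91.1% and 99.8%), which gave symbols, coordinates, and exon lengths.

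Each line was fitted apart with edgeR 4.0.16 in R 4.3.3 (filterByExpr, TMM, quasi-likelihood F test, Benjamini-Hochberg adjustment over all genes tested, threshold 0.05). The difference between lines was the interaction of line and treatment in 1 fit over 12 libraries. CPM were computed from TMM-scaled totals of the genes tested, and CPM per kilobase from the joined exons of a gene. A 95% interval is the fold change ± the t quantile times the SE. Alternatives were DESeq2 1.42.0, other scalings and filters, leaving out each library, the replicate number as a block, and other gene lengths, of which the canonical transcript was added after the data had been seen.

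The 9 genes and the lists were chosen with earlier results of these data known. The text names all 9 genes and, from each of 11 pathway lists, up to 3 called genes with the largest change and at least 1 CPM in the higher group, of which 1 is not reported here. *KDR*, *FLT1*, *FLT4*, *CD36*, *Cd47*, *Sparc*, and the human *SLC2A1* are given besides, and the promoter motifs were picked after the fold changes were known. Marker lists were epithelial, mesenchymal state, endothelial, leukocyte, and fibroblast genes. Same-numbered libraries of a line deviated together, with correlations of 0.345, 0.111, and 0.133 for MDA-MB-231 and 0.213, 0.119, and 0.115 for 4T1. All exceed 0.1, so the replicate numbers may pair the libraries. Fold changes, SE, intervals, and adjusted p come from fits without this pairing, unless the replicate block is named. No 2 libraries agreed within sampling noise (chi-square per gene at least 2.93). The coefficient of variation between libraries beyond counting error, as edgeR estimates it, was 0.099 for MDA-MB-231 and 0.0869 for 4T1. In simulated data with 200 genes changed 1 log2 unit, 92% were recovered with 7 false calls among 14543 genes in MDA-MB-231, 97% with 13 among 13226 in 4T1, and 89% with 3 among 12455 for the difference. The simulation gave every gene the same spread, drew libraries independently, and changed far fewer genes than were called here. It checks the fitting steps and does not measure recovery or false calls in these data. Intervals and the floor of 3 counts cover counting error and library spread only.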

Additional observations from a re-analysis of the deposited data

Results flagged for a closer look

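For 6 genes the response to ponatinib differed between the lines by the interaction test in edgeR (Benjamini-Hochberg adjusted p under 0.05; values are log2 fold change in MDA-MB-231 minus that in 4T1). The difference was 1.04 for *VEGFA*, where every ponatinib library was above every DMSO library in MDA-MB-231 and below in 4T1. It was 2.04 for *PGF* and 1.68 for *NRP2*, with the same pattern of libraries. For *THBS1* it was −3.48, with treated libraries below in MDA-MB-231 and above in 4T1. For *ANGPTL4* it was −3.53, with a fall in MDA-MB-231 and overlapping groups in 4T1. For *NRP1* it was −1.01, with overlapping groups in MDA-MB-231 and a rise in 4T1. Over the alternatives the 6 differences kept their sign and passed in every fit that gave a value, with adjusted p of at most 0.00625. Groups of 3 libraries are too small for a test of single outlying libraries.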

How the results depend on the processing

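No result changed direction past the threshold under any alternative. The count of 4 higher genes in MDA-MB-231 fell to between 2 and 3 when 1 library was left out (2 without DMSO replicate 3 and without ponatinib replicate 2), through *VEGFB* and *NRP2*, while the counts of lower genes in MDA-MB-231 (2 to 4), of lower (3) and higher (3 to 4) genes in 4T1, and of genes that differ between the lines (5 to 8) stayed within 1.5 times their main value. The replicate block added *NRP1* to the lower genes of MDA-MB-231 (4 in place of 3) and *VEGFB* and *VEGFC* to the genes that differ between the lines (8 in place of 6), and it ended no call of the 9 genes. *ANGPTL4* of MDA-MB-231 gave no value with a minimum of 10 counts in every library, since its treated libraries held 8 to 12. The log2 fold change of *ESM1* stayed between −5.17 and −4.99, that of *THBS1* between −1.46 and −1.25 and that of *Thbs1* between 2.04 and 2.29. With total counts as the scale, the median log2 fold change over the table was 0.11 for MDA-MB-231 and 0.12 for 4T1. Of the fold changes refitted, 1026 kept their side of the threshold, 24 lost it and 11 gained it. Levels per kilobase moved by more than the spread between libraries in 56 of 72 cases when another gene length was used.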
